A study of Mus musculus with 6 samples.

Results

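Collagens are secreted or membrane-bound proteins of the extracellular matrix in which chains coil around each other into a triple helix. Fibrillar chains form the cables of connective tissue, type IV chains form the sheet beneath endothelium and around Schwann cells, and other chains coat fibrils, build beaded filaments or span the cell membrane. In a peripheral ganglion they are known chiefly as products of fibroblasts, Schwann cells, perineurial cells and vessels rather than of neurons. The collagen chains were taken as the rows of the gene table whose symbol is Col, a number, the letter a and a number, which gave 43 of 16613 genes. By class, 11 were fibrillar, 8 belonged to the basement membrane (types IV, XV and XVIII), 9 formed networks (types VI, VIII and X) and 15 fell under other, of which 8 were fibril-associated, 4 transmembrane and 3 anchoring or remaining chains. Col9a1 was not analysed here.

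Messenger RNA was sequenced from dorsal root ganglia, which hold the cell bodies of somatic sensory neurons, of mice aged 6 months. The 3 control libraries had the genotype Kif2a fl/fl, although their titles read WT, and the 3 knockout libraries had the genotype Kif2a fl/fl; Avil cre. Both groups thus carried floxed Kif2a, and the Cre, driven by a gene of sensory neurons, was in the knockout group alone, so effects of Kif2a loss and of the Cre cannot be told apart. Strain and sex were not in the labels used here, nor was it said whether each library came from 1 animal, so any p-value speaks of the variation among these libraries, which may be technical.

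Library totals ran from 16090726 to 19221415 counts, and levels are given as CPM, read counts relative to library size after TMM scaling. Kif2a itself measured 105.6, 93.9 and 92.7 CPM in the controls, in replicate order, and 90.6, 85.7 and 88.5 CPM in the knockouts, a log2 difference of -0.14 (SE 0.10, edgeR adjusted p = 0.957), so in whole ganglia it gave little check of the labels. Avil, the gene whose locus names the Cre, measured 1003 to 1095 CPM in the controls and 439.5 to 517.6 CPM in the knockouts. The 14 sensory neuron markers were all present, with a summed level of 15570 to 18900 CPM. Control replicate 2 stood apart: 16 skeletal muscle markers, with Pvalb left out, summed to 2205 CPM there and to 14.9 to 97.9 CPM in the other 5 libraries. It was also the control library with the lowest summed collagen level, so chains given library by library whose change moved by more than 1.5 times without it are also given without it. In whole ganglia, fewer cells of a type and less RNA per cell cannot be told apart.

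No collagen chain passed the test in any fit that kept all 6 libraries. Of the 41 chains that passed the low-count filter, 0 passed an adjusted p of 0.05 in edgeR's quasi-likelihood test (Benjamini-Hochberg adjustment over 15043 genes), where 0% of all genes tested did, Avil included (adjusted p = 0.084), so that fit does not show that levels were alike. At an unadjusted p under 0.05 there was 1 chain, Col27a1, against 5.48% of all genes. DESeq2 (0.421% of all genes) and limma-voom (0% of all genes) also called 0 chains. With the replicate number as a block, edgeR again called 0 chains, beside 3.60% of all genes, and 7 chains had an unadjusted p under 0.05, beside 19.1% of all genes. The authors' deposited table gave 0 collagen rows a false discovery rate under 0.05, beside 0.849% of all rows, with 0.459 as the smallest value.

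The size of change that these data allow is bounded. The median log2 fold change (knockout minus control) over the 41 chains was 0.10, beside 0.01 over all genes tested. By pair, the median log2 difference of CPM (pseudocount 0.5) was 0.21, 0.12 and -0.04 in replicates 1 to 3 (SD 0.13), so the third pair went the other way. Of these chains, 27 were above 0 and 14 below it, or 65.9% above 0 against 52.3% of all genes. The 95% interval of the difference, unadjusted and from edgeR without a block, lay within 2-fold in both directions for 32 chains and within 1.5-fold for 12. The intervals of the other tested chains reached past 2-fold. The knockout library was above the control library of its number in all 3 pairs for 10 chains (24.4%, against 21.4% of all genes) and in 0 of 3 pairs for 5 chains (12.2%, against 20.6%). Control and knockout ranges were separate for 3 of 41 chains, beside 11.1% of all genes. Col27a1 and Col13a1 were higher in the knockout (5.02% of all genes) and Col10a1 lower (6.12%).

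**Figure D1:**
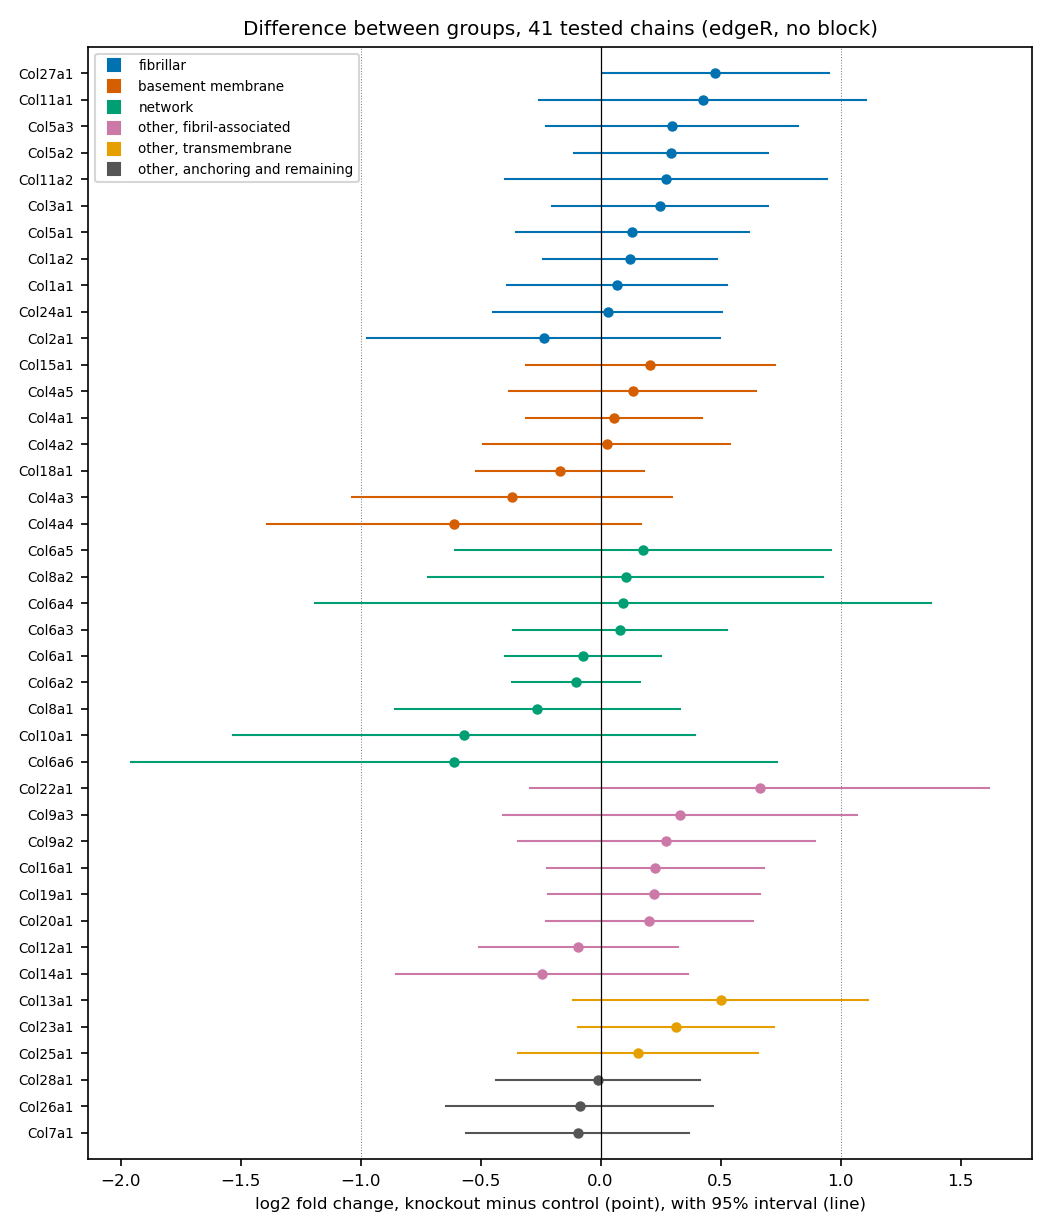
Log2 fold change (x axis, knockout minus control, edgeR without a block) of the 41 tested collagen chains (y axis), coloured by class, with the unadjusted 95% interval as a line and dotted lines at a log2 fold change of 1 and -1. The interval excludes 0 for Col27a1 alone, whose edgeR adjusted p was 0.91. Of 11 fibrillar chains, 10 lie right of 0, beside 52.3% of all genes tested, and 5 were higher in the knockout in 3 of 3 pairs.

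Levels of different chains were compared per kilobase of the longest principal transcript in GENCODE M21. On this scale the chains ran from 0.043 CPM per kilobase for Col17a1, a hemidesmosome chain, to 28.9 for Col1a2, as means of 6 libraries. The 8 highest were Col1a2, Col3a1, Col5a3, Col28a1, Col16a1, Col1a1, Col15a1 and Col4a1. They include chains of fibrils, of the fibril coat and of the basement membrane. Dividing by the merged length of all annotated exons instead put Col5a3 first and Col1a2 second, and kept the same 8 genes on top. In all, 37 chains had a mean of at least 1 CPM and 22 a mean of at least 10 CPM.

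**Figure D2:**
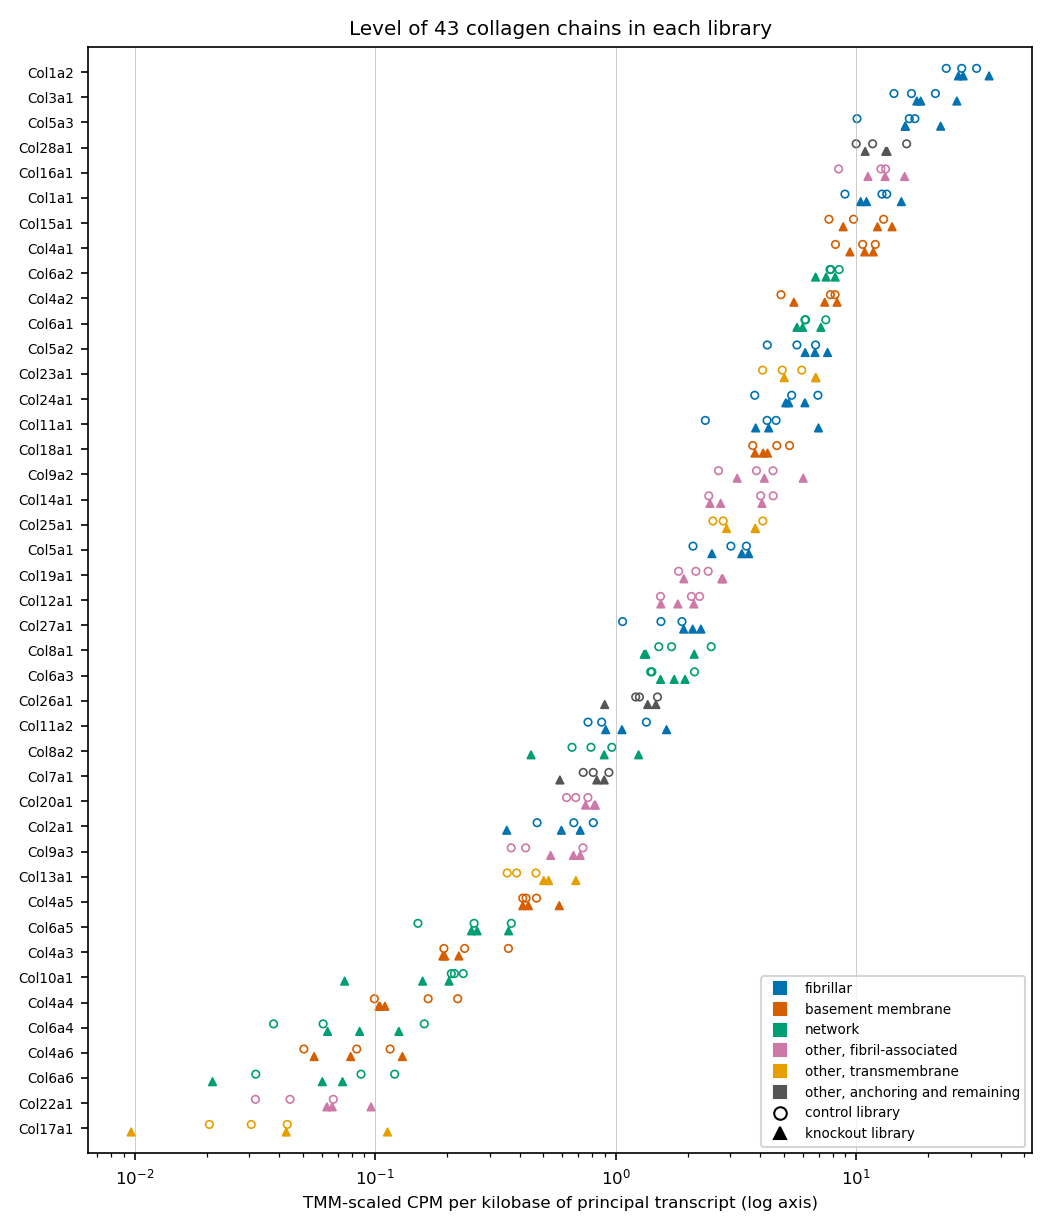
TMM-scaled CPM per kilobase of principal transcript (log x axis) of all 43 collagen chains (y axis, ordered by mean), with open circles for control and triangles for knockout libraries, coloured by class. Levels run from 0.043 for Col17a1 to 28.9 for Col1a2, and control and knockout symbols overlap for all tested chains except Col27a1, Col13a1 and Col10a1.

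By class, fibrillar chains made up 45.3%, 49.3% and 49.4% of the summed collagen level per kilobase in control replicates 1 to 3, and 49.3%, 49.3% and 51.9% in knockout replicates 1 to 3. Basement membrane chains took 16.4% to 17.5% in the control and 15.7% to 16.9% in the knockout. Network chains took 9.40% to 11.2% in the control and 8.72% to 8.89% in the knockout, so the knockout lay below the control in all libraries, which was noticed after the values were seen and not tested. All other chains together took 22.6% to 27.8% over the 6 libraries. All collagen counts together were 0.0911% to 0.127% of a library.

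Among fibrillar chains, Col1a2 encodes the alpha-2 chain of type I collagen, the main collagen of epineurial connective tissue. Col1a2 measured 127.0, 147.3 and 169.8 CPM in the controls, in replicate order here and below, and 149.3, 142.7 and 191.4 CPM in the knockouts. Library 3 was the highest of each group and the groups overlapped. The log2 fold change was 0.12 (SE 0.16, edgeR adjusted p = 0.981), with an interval of -0.24 to 0.49. Its partner Col1a1 was at 69.7 ± 14.2 CPM in the control and 73.1 ± 16.2 CPM in the knockout (SD, n = 3).

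Col3a1 encodes type III collagen, which forms fine fibrils with type I. It was at 80.1, 94.7 and 119.1 CPM in the control and at 99.7, 103.5 and 146.2 CPM in the knockout. Each knockout library was above the control library of its number, yet the groups overlapped. The change was 0.25 (SE 0.20, edgeR adjusted p = 0.969) without the block and 0.25 (SE 0.07, adjusted p = 0.0734) with it.

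Col5a3 is a type V chain that rat Schwann cells are known to secrete, and it was the third most abundant chain per kilobase. Col5a3 was at 102.0, 61.8 and 107.6 CPM in the control and at 137.7, 98.0 and 98.2 CPM in the knockout. Control replicate 2 was the lowest library, and 2 of 3 pairs were higher in the knockout. The change was 0.30 (SE 0.23, edgeR adjusted p = 0.965), and without control replicate 2 it was 0.10 (SE 0.18). Of the other type V chains, which nucleate type I fibrils, Col5a2 went from 37.0 ± 8.35 to 45.3 ± 4.88 CPM and Col5a1 from 24.2 ± 5.99 to 26.5 ± 4.71 CPM.

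Col27a1 encodes a fibrillar chain best known from cartilage, and it was the tested fibrillar chain with the largest log2 fold change. Its levels were 11.8, 8.15 and 14.4 CPM in the control and 15.9, 17.2 and 14.6 CPM in the knockout. All 3 knockout libraries were above all 3 control libraries. The change was 0.48 (SE 0.21, interval 0.0054 to 0.95), with an edgeR adjusted p of 0.91, and without control replicate 2 it was 0.29 (SE 0.17). With the block it was 0.50 (SE 0.19, adjusted p = 0.203), and it was 0.24 (SE 0.16, adjusted p = 0.497) in that fit without replicate 2. The remaining fibrillar chains were Col11a1, Col11a2, Col24a1 and Col2a1, with log2 fold changes of -0.24 to 0.43. Col2a1, the main collagen of cartilage, was at 1.80 to 4.13 CPM over all libraries, and was lower in the knockout in 3 of 3 pairs without passing.

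Among the fits run, collagen calls appeared only where a pair was left out of the blocked edgeR fit, and these genes were named after their values were seen. Without replicate 3 of each group, 6 chains passed: Col11a1 (0.64, SE 0.10), Col5a3 (0.55, SE 0.07), Col16a1 (0.36, SE 0.08), Col27a1 (0.75, SE 0.16), Col5a2 (0.38, SE 0.10) and Col23a1 (0.38, SE 0.10), all higher in the knockout, where 5.94% of all genes passed, 2.49% as higher in the knockout. Without replicate 2, 3 chains passed, namely Col3a1 (0.31, SE 0.10), Col11a1 (0.32, SE 0.10) and Col23a1 (0.33, SE 0.11), where 5.40% of all genes passed, 2.27% as higher in the knockout. Without replicate 1, 0 of 41 chains passed beside 1.37% of all genes. Replicate 2 here includes the control library with high muscle markers. With a pair left out, the blocked fit has few libraries per gene, so its SEs lean on variation shared across genes. For Col5a3 the SE was 0.17 in the blocked fit with all pairs, so the smaller SE is not added precision.

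In the basement membrane, Col4a1 and Col4a2 encode the chains of the common type IV collagen of vessels and Schwann cells. The genes lie head to head on chromosome 8, with Col4a1 on the minus strand (chr8:11198423-11312826) and Col4a2 on the plus strand (chr8:11312805-11449287). Their RefSeq start sites are 21 bases apart, and their exons share 22 bases, so reads there could not be assigned by position alone. The promoter windows are shown because the genes lie head to head, and a link of promoter sequence to any level was not tested. Each window runs from 250 bases before the start to 50 bases from it (RefSeq, GRCm38.p6), and capitals mark matches on either strand to the CCAAT box, to the GC box core GGGCGG and to the TATA box letters TATAAA. The pair of windows shares 78 bases.
Col4a1 (chr8:11312777-11313076, minus strand): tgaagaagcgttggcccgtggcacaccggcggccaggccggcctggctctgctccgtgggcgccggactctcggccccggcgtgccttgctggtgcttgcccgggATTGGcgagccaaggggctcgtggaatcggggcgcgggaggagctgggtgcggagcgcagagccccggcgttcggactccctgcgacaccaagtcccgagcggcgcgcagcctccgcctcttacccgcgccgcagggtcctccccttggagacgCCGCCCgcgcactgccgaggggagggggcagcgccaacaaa
Col4a2 (chr8:11312555-11312854, plus strand): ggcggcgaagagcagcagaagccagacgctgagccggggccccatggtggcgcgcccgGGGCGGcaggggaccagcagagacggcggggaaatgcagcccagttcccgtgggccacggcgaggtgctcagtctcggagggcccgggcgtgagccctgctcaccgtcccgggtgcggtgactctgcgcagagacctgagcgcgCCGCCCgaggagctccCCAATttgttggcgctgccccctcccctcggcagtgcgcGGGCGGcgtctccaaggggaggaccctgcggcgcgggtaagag

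Col4a1 was at 79.6, 54.4 and 70.5 CPM in the control and at 78.1, 62.4 and 71.9 CPM in the knockout. Col4a2 was at 52.8, 31.5 and 50.5 CPM in the control and at 53.8, 35.6 and 47.8 CPM in the knockout. For both, replicate 2 was the lowest and replicate 1 the highest library of each group. The ratio of Col4a2 to Col4a1 per kilobase was 0.68, 0.594 and 0.735 in the control and 0.707, 0.585 and 0.682 in the knockout. The groups overlapped in this ratio. Log2 fold changes were 0.05 (SE 0.16) for Col4a1 and 0.03 (SE 0.22) for Col4a2, with edgeR adjusted p-values of 0.989 and 0.996. Without control replicate 2 they were -0.08 and -0.17, so no direction is given for either.

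The promoters of the most abundant fibrillar chains, Col1a2 and Col3a1, are set beside them for comparison. Both chains had replicate 3 as the highest library of each group, and whether promoter sequence bears on this was not tested.
Col1a2 (chr6:4505368-4505667, plus strand): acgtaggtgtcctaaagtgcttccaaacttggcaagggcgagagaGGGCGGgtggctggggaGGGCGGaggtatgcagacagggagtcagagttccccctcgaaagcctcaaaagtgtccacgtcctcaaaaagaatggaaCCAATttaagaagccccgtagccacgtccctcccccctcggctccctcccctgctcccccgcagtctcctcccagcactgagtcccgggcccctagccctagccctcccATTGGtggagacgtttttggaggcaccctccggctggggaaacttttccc
Col3a1 (chr1:45311288-45311587, plus strand): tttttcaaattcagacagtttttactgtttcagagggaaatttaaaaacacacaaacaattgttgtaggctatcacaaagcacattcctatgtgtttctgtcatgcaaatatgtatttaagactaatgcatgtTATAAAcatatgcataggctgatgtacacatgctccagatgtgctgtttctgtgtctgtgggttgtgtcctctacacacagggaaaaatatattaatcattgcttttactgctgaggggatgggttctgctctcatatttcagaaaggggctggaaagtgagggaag
The Col4a1 and Col4a2 windows were 74.0% and 73.7% G or C, that of Col1a2 61.0% and that of Col3a1 37.7%, against a median of 52.7% over 32851 promoters. CCAAT on either strand was in the Col4a1, Col4a2 and Col1a2 windows, and in 37.4% of all promoters. GGGCGG matched in the same 3 windows and in 35.7% of all promoters, and 1 of its matches lies in the stretch that Col4a1 and Col4a2 share. TATAAA was in the Col3a1 window, with its first base at -117 from the start, and in 13.6% of all promoters. In the Col1a2 window, CCAAT matched at -109 and, on the other strand, at 1. GENCODE M21 starts the Col1a2 gene at 4504814, before this window. The function of these matches was not tested. No searched motif is part of another, and 34 of the 43 collagen genes had at least 1 promoter in the table.

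Col15a1 encodes a proteoglycan collagen between basement membranes and fibrils. It was at 39.9, 50.5 and 67.4 CPM in the control and at 45.8, 63.6 and 73.1 CPM in the knockout. Replicate 1 was the lowest library of each group, unlike for Col4a1 and Col4a2, and 3 of 3 pairs were higher in the knockout. The change was 0.21 (SE 0.23, edgeR adjusted p = 0.981), and 0.21 (SE 0.07, adjusted p = 0.14) with the block. Col18a1, the source of endostatin, was at 21.9 ± 3.80 CPM in the control and 19.5 ± 1.18 CPM in the knockout.

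Col4a3 and Col4a4, chains of the type IV collagen known from kidney and lung, had the most negative log2 fold changes among chains with a mean of at least 1 CPM. Col4a3 was at 2.02, 1.65 and 3.07 CPM in the control and at 1.91, 1.64 and 1.67 CPM in the knockout. Col4a4 was at 1.68, 1.004 and 2.23 CPM in the control and at 1.06, 1.11 and 1.05 CPM in the knockout. Control replicate 3 was the highest library for both and the groups overlapped. The changes were -0.37 (SE 0.29, edgeR adjusted p = 0.969) and -0.61 (SE 0.34, edgeR adjusted p = 0.933). Without control replicate 3 they were -0.079 and -0.32, so that library carried much of both. They rested on 17 to 55 counts per library. Col4a5, their X-linked partner, was at 2.69 to 3.81 CPM over all libraries, and Col4a6, at 0.336 to 0.864 CPM, was removed by the low-count filter.

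Of the network chains, type VI collagen forms beaded filaments around cells of connective tissue and nerve. Col6a1 was at 25.3, 25.1 and 30.7 CPM in the control and at 23.3, 24.6 and 29.3 CPM in the knockout. Col6a2, its neighbour on chromosome 10, was at 30.8, 31.1 and 33.6 CPM in the control and at 32.4, 26.8 and 29.7 CPM in the knockout. Col6a3 was at 12.6, 12.8 and 19.2 CPM in the control and at 15.8, 13.9 and 17.5 CPM in the knockout. All 3 overlapped between groups, and Col6a1 was lower in the knockout in 3 of 3 pairs. Their log2 fold changes were -0.07 (SE 0.14), -0.10 (SE 0.12) and 0.08 (SE 0.19), with edgeR adjusted p-values from 0.981 to 0.985. Without control replicate 2, that of Col6a1 was -0.12 and that of Col6a3 -0.011. Col6a2 had the narrowest interval of all chains, from -0.37 to 0.16.

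The related chains Col6a4, Col6a5 and Col6a6 lie next to each other on chromosome 9 and resemble each other, so the division of reads among them is uncertain. They were at 0.185 to 3.42 CPM. Col8a1 and Col8a2 encode type VIII collagen of vessel walls and the cornea. Col8a1 went from 9.74 ± 2.67 to 8.14 ± 2.36 CPM, lower in 3 of 3 pairs, and Col8a2 from 3.49 ± 0.665 to 3.74 ± 1.74 CPM. Col10a1, a marker of hypertrophic cartilage, was at 0.728, 0.649 and 0.669 CPM in the control and at 0.636, 0.234 and 0.494 CPM in the knockout. The groups did not overlap, on 4 to 13 counts per library, and the change of -0.57 (SE 0.42) did not pass (edgeR adjusted p = 0.957). Its exons share 18 bases with Nt5dc1 on the other strand.

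Fibril-associated chains sit on the surface of larger fibrils. Col16a1, found near basement membranes in several tissues, was at 66.1, 44.1 and 69.1 CPM in the control and at 82.9, 58.4 and 68.8 CPM in the knockout. Col12a1, which links fibrils to their surroundings, was at 23.8, 17.7 and 25.8 CPM in the control and at 24.4, 17.8 and 20.9 CPM in the knockout. Col14a1, a regulator of fibril diameter, was at 25.7, 13.9 and 22.8 CPM in the control and at 23.1, 14.0 and 15.5 CPM in the knockout. For all 3, replicate 2 was the lowest library of each group. The changes were 0.23 (SE 0.20), -0.09 (SE 0.18) and -0.24 (SE 0.27), with edgeR adjusted p-values from 0.977 to 0.984. Without control replicate 2 they were 0.058, -0.23 and -0.46, and without control replicate 1 that of Col14a1 was -0.075.

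The other fibril-associated chains were Col9a2, Col9a3, Col19a1, Col20a1 and Col22a1, with log2 fold changes of 0.20 to 0.66. Col9a2, of cartilage fibrils, was at 7.84, 11.3 and 13.2 CPM in the control and at 9.38, 12.2 and 17.6 CPM in the knockout, with replicate 1 lowest and replicate 3 highest in each group. Col19a1, known in mouse brain from interneurons, was the 1 chain lowest in replicate 3 of both groups. Col22a1 had the largest log2 fold change of any tested chain, 0.66 (SE 0.42), on 5 to 16 counts per library, and its interval ran from -0.29 to 1.62. Col9a3 shares 234 exonic bases with Tcfl5 on the other strand.

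Transmembrane chains are made by epithelia, muscle and some neurons, and can be shed from the surface. Col23a1 was at 27.9, 23.1 and 33.7 CPM in the control and at 38.6, 28.5 and 38.4 CPM in the knockout. Each pair was higher in the knockout, while the groups overlapped. The change was 0.31 (SE 0.18, edgeR adjusted p = 0.933), and with the block 0.32 (SE 0.09, adjusted p = 0.0712), the smallest adjusted p of any chain in that fit. Without control replicate 2 the unblocked change was 0.20 (SE 0.17). Col25a1, which mouse muscle needs for motor innervation, was at 10.8, 6.67 and 7.36 CPM in the control and at 10.01, 7.60 and 9.99 CPM in the knockout, a change of 0.15 (SE 0.22) that was 0.032 without control replicate 2.

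Col13a1, a chain of the neuromuscular junction, was at 1.12, 1.48 and 1.23 CPM in the control and at 1.59, 2.16 and 1.67 CPM in the knockout. Here all knockout libraries were above all control libraries. The change of 0.50 (SE 0.27, interval -0.11 to 1.12) rested on 20 to 37 counts per library and did not pass (edgeR adjusted p = 0.93). Col17a1 had 1 to 10 counts and was removed by the low-count filter.

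Col28a1 encodes type XXVIII collagen, known in mouse from the surroundings of peripheral glia, and it was among the most abundant chains per kilobase. It was at 68.7, 42.4 and 49.6 CPM in the control and at 56.3, 57.0 and 46.2 CPM in the knockout. All knockout values lay within the range of the control. The log2 fold change was -0.01 (SE 0.19, interval -0.44 to 0.42, edgeR adjusted p = 0.997). Col7a1, of the anchoring fibrils of skin, was at 8.68, 6.79 and 7.47 CPM in the control and at 7.73, 8.30 and 5.43 CPM in the knockout. Col26a1 was at 3.30, 3.42 and 4.07 CPM in the control and at 3.71, 2.45 and 4.01 CPM in the knockout, so the groups overlapped for both. Without control replicate 2 the change was -0.14 for Col28a1 and -0.16, from -0.09, for Col7a1.

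Chains that assemble together were compared as ratios. The ratio of Col1a2 to Col1a1 per kilobase was 2.64, 2.15 and 2.36 in the control and 2.67, 2.41 and 2.32 in the knockout. The ratio of Col5a2 to Col5a1 was 1.95 ± 0.078 in the control and 2.20 ± 0.222 in the knockout (SD, n = 3), and that of Col6a2 to Col6a1 was 1.23 ± 0.079 and 1.21 ± 0.206. The groups overlapped in each ratio. The length used matters: with merged exon lengths the ratio of Col6a2 to Col6a1 was 0.533 to 0.731, below 1, and that of Col1a2 to Col1a1 was 1.02 to 1.27.

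Of the 41 tested chains, 22 (53.7%) were lowest in the same replicate number in both groups, near the 56.6% of all genes. Same-numbered libraries of the groups deviated together from their group means over all genes, with Pearson correlations of 0.53, 0.30 and 0.17 across 15043 genes, which are not independent of each other. Replicate 2 was the lowest library in both groups for 15 of 41 chains (36.6%, against 23.5% of all genes), among them Col5a3, Col4a1, Col16a1, Col4a2 and Col5a2. Replicate 1 was the lowest in both for 6 chains (14.6%, against 24.3%), namely Col3a1, Col1a1, Col15a1, Col9a2, Col2a1 and Col13a1. Replicate 3 was the highest in both groups for 13 chains (31.7%, against 9.47% of all genes), among them Col1a2, Col3a1, Col1a1, Col15a1, Col5a2 and Col6a1. Replicate 1 was the highest in both for 8 chains (19.5%, against 27.9%) and replicate 2 for 1 (2.44%, against 21.3%). Replicate 3 was the lowest in both for 1 chain (2.44%, against 8.84%).

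**Figure D3:**
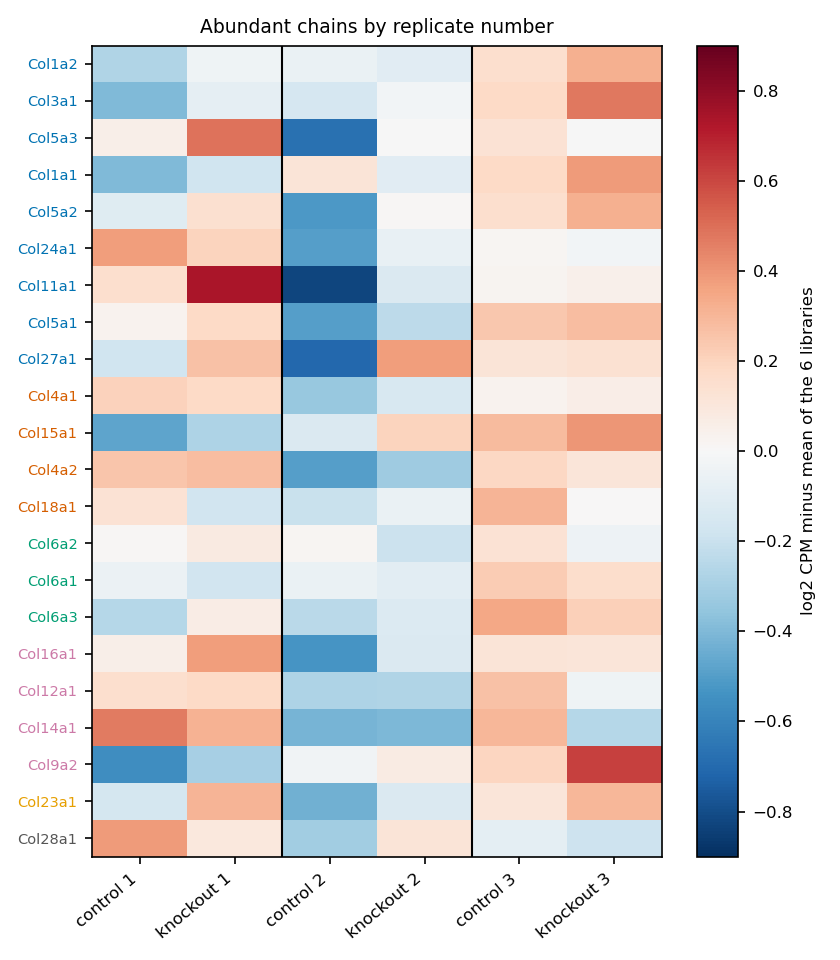
Deviation of log2 CPM from the mean of the 6 libraries (colour) for the 22 collagen chains with a mean of at least 10 CPM (rows, label colour by class), with control and knockout libraries of the same number side by side (columns). Col3a1, Col1a1, Col15a1 and Col9a2 are lowest in replicate 1 of both groups, whereas Col4a1, Col4a2, Col16a1 and Col14a1 are lowest in replicate 2 of both.

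Some marker sums followed these orders of libraries, while others, such as the endothelial and pericyte sums, had a different order in each group. The part of any marker list in the collagen values was not tested. The 20 fibroblast markers, which include Dcn and Lum, summed to 1431, 1933 and 2157 CPM in control replicates 1 to 3 and to 1573, 1920 and 2239 CPM in knockout replicates 1 to 3. Replicate 1 was the lowest and replicate 3 the highest of each group, as for Col3a1. Of the 20 genes, 9 were lowest in replicate 1 of both groups and 8 were highest in replicate 3 of both. Basement membrane partners were 22 genes for laminins, nidogens and associated proteins. They summed to 758.4, 607.9 and 808.2 CPM in the control and to 741.0, 686.9 and 737.5 CPM in the knockout. Replicate 2 was the lowest of each group, as for Col4a1, although only 7 of 22 members were lowest there in both groups. Sensory neuron markers had the full order of Col4a1, with replicate 2 lowest and replicate 1 highest in each group. They summed to 17610, 15570 and 17179 CPM in the control and to 18900, 16099 and 18198 CPM in the knockout. Macrophage markers were lowest in replicate 1 of each group for 10 of 12 genes. Cartilage and bone markers, 9 of 14 rows tested, summed to 82.9 to 116.2 CPM, and tendon markers to 32.5 to 41.5 CPM; Dlx5 and Tnmd were at 0 in at least 1 library. Pericyte and smooth muscle markers summed to 121.6, 230.5 and 220.8 CPM in the control and to 141.4, 122.6 and 133.3 CPM in the knockout. Of these, 10 of 14 were below 0, with a median of -0.22, while the sum was higher in the knockout in replicate 1. The 3 erythroid markers summed to 17.98 to 71.99 CPM over all libraries. The 17 Schwann and satellite glia markers summed to 11206, 11868 and 11799 CPM in the control and to 11235, 12374 and 13613 CPM in the knockout, higher in 3 of 3 pairs, with a median log2 fold change of 0.18 and 12 members above 0. Endothelial markers summed to 194.7, 176.1 and 243.2 CPM in the control and to 233.6, 226.6 and 226.0 CPM in the knockout, lower in the knockout in replicate 3. Their median was 0.16, with 13 of 16 above 0, beside 52.3% of all genes tested. Adipocyte markers summed to 15.6, 45.1 and 61.5 CPM in the control and to 17.9, 26.9 and 27.0 CPM in the knockout. That sum was higher in the knockout in replicate 1, although 7 of 7 tested were below 0, with a median of -1.47. The skeletal muscle list, high in control replicate 2, had 15 of 15 tested below 0 and a median of -4.12. Perineurial and meningeal markers summed to 1015, 765.8 and 1132 CPM in the control and to 1157, 742.6 and 916.7 CPM in the knockout. Replicate 2 was the lowest library of each group there too.

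**Figure D4:**
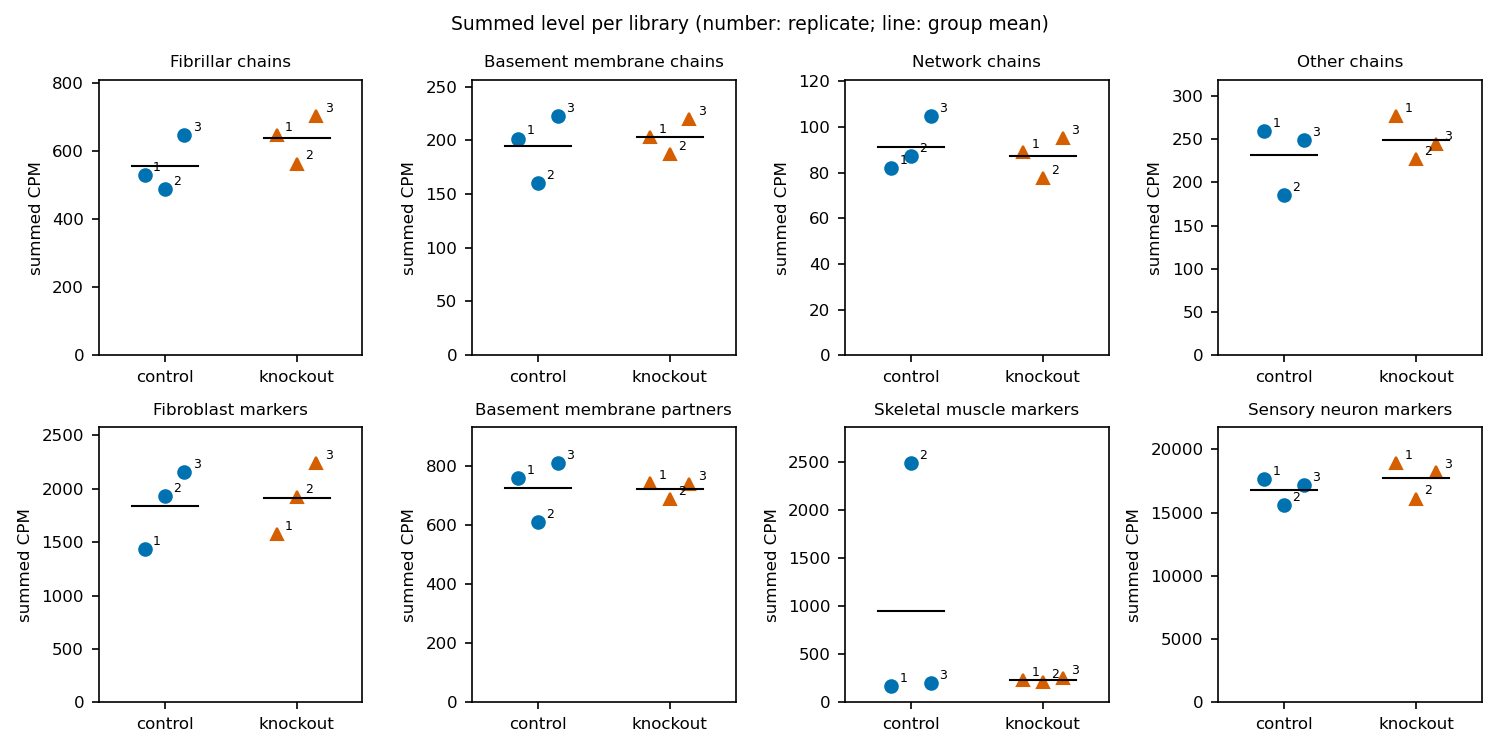
Summed TMM-scaled CPM (y axis, from 0) of 4 collagen classes (top row) and 4 gene lists (bottom row) in each library, with circles for control, triangles for knockout, the replicate number beside each point and a line at the group mean. Fibroblast markers run from 1431 CPM in control replicate 1 to 2239 CPM in knockout replicate 3. Skeletal muscle markers, here with Pvalb kept, stand out in control replicate 2 (2491 CPM, against 170.3 to 251.8 CPM in the other libraries).

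Genes that hydroxylate, fold and export collagen showed 1 call among 29 tested with the block, a fit in which 3.60% of all genes passed and 1.24% rose. Serpinh1 encodes HSP47, the chaperone that binds procollagen in the endoplasmic reticulum and is also induced by heat shock. Serpinh1 was at 52.5, 49.0 and 60.5 CPM in the control and at 81.8, 63.3 and 79.8 CPM in the knockout. All knockout libraries were above all control libraries. It rose by 0.47 on the log2 scale (SE 0.08, edgeR adjusted p = 0.00723 with the block), while without the block the same change had an SE of 0.14 and an adjusted p of 0.76. In the blocked fit without replicate 1 the call was lost (adjusted p = 0.114). The median of this list was 0.08. Sparc, a collagen-binding protein and its most abundant member, went from 926.2 ± 72.4 to 1114 ± 137 CPM without passing (blocked edgeR adjusted p = 0.0735).

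Among 28 fibril-organising proteoglycans and glycoproteins, 2 rose with the block, beside 1.24% of all genes, and the median log2 fold change was 0.04. Lum, which encodes lumican, a proteoglycan that spaces fibrils, was at 73.4, 155.3 and 167.0 CPM in the control and at 108.3, 186.6 and 224.1 CPM in the knockout. Lum rose by 0.41 (SE 0.07, edgeR adjusted p = 0.00997 with the block), with groups that overlapped and an adjusted p of 0.979 without the block. Fbln2, which encodes the matrix glycoprotein fibulin 2, was at 108.5, 86.4 and 116.9 CPM in the control and at 139.9, 123.2 and 128.3 CPM in the knockout, without overlap. Fbln2 rose by 0.34 (SE 0.08, edgeR adjusted p = 0.0401 with the block), and limma-voom with the block did not call it (adjusted p = 0.0626). The Lum call was lost without replicate 1 (0.151), and the Fbln2 call without replicate 1 (0.253) or 2 (0.0953). Lum is also on the fibroblast list.

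**Figure D5:**
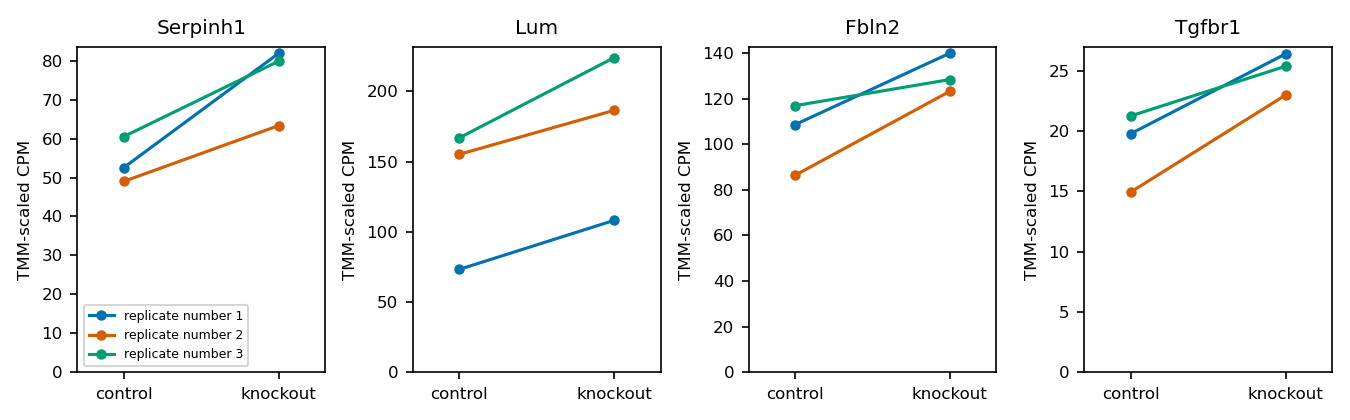
TMM-scaled CPM (y axis, from 0) of 4 collagen-related genes in control and knockout libraries, with lines joining libraries of the same replicate number. The genes were chosen because they passed as higher with the replicate block, so rising lines add no support. Each line runs upward, from 52.5 to 81.8 CPM for Serpinh1 in replicate 1 for example, while the Lum lines start at different control levels.

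In the TGF-beta and regulator list, 1 of 31 rose with the block, beside 1.24% of all genes, and the median was 0.07. This was Tgfbr1, a receptor kinase that signals to collagen genes in fibroblasts, at 19.8, 14.9 and 21.2 CPM in the control and 26.4, 23.0 and 25.4 CPM in the knockout. It rose by 0.43 (SE 0.10, edgeR adjusted p = 0.047 with the block), and the call was lost without replicate 1 (0.226) or 2 (0.0945). With all 6 libraries and the block, Tgfbr1 was not called by DESeq2 (adjusted p = 0.179) or limma-voom (adjusted p = 0.0654). Of 21 genes for collagen degradation and its inhibitors, Mmp8, the collagenase of neutrophils, rose by 1.14 (SE 0.23, edgeR adjusted p = 0.0231 with the block). Mmp8 was at 1.23, 1.59 and 2.84 CPM in the control and at 2.01, 3.33 and 7.96 CPM in the knockout, and lost its call without replicate 3 (0.116). DESeq2 with the block did not call Mmp8 (adjusted p = 0.143), and without knockout replicate 3 the unblocked change of 1.22 was 0.49. The list median was 0.11.

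Of the other lists, 0 of 13 processing and cross-linking genes, 0 of 22 basement membrane partners and 0 of 12 collagen receptors passed in either edgeR fit, with medians of 0.11, -0.07 and -0.02. Examples are Pcolce, an enhancer of procollagen cleavage, at 36.3 ± 10.6 and 37.8 ± 8.81 CPM, and Itgb1, the shared integrin subunit, at 446.6 ± 18.1 and 441.9 ± 15.4 CPM. On the fibroblast list Lum rose and Serping1, a complement inhibitor gene, fell by 0.61 (SE 0.10, edgeR adjusted p = 0.0225 with the block), and the list median was -0.01. Moxd1, on the perineurial and meningeal list, fell by 0.85 (SE 0.09, edgeR adjusted p = 0.000569 with the block), from 63.9 ± 13.9 to 35.8 ± 10.4 CPM. Moxd1 kept an adjusted p under 0.05 in the blocked fit with each pair left out, and the Serping1 call was lost without replicate 1 (0.0947). Without control replicate 2, the unblocked Serping1 change of -0.63 was -0.35. On the other marker lists, Slc4a1 (erythroid), C1qa and C1qb (macrophage) and Nefh (sensory neuron) rose with the block, and Scn9a, Scn10a and Avil (sensory neuron) fell. No gene of the endothelial, pericyte, glial, cartilage, tendon, muscle or adipocyte lists passed in either edgeR fit. Over all genes, 1.24% rose and 2.36% fell with the block.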

How the data were processed

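RNA was sequenced from 3 control and 3 knockout libraries. The authors deposited 1 table of 16613 genes with raw counts per library, whole numbers per the file headers and when checked, and the smallest row total was 6. Their log2 fold changes and p-values, with a false discovery rate from fdrtool, are in the same deposited table. A further 12 per-library columns, normalized or transformed, were not used. Cutadapt, STAR, DESeq2 and the build mm10 are named, per the submitters' processing notes. How reads were counted, with which annotation and strand setting, was not stated.

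The counts were fitted with edgeR 4.0.16 under R 4.3.3 (filterByExpr, which kept 15043 genes, scaling by trimmed mean of M values or TMM, CPM as counts relative to scaled library size, robust quasi-likelihood fit, group as the only term, Benjamini-Hochberg, threshold 0.05). The SE is the log2 fold change divided by the square root of F, and intervals use the fit's degrees of freedom. Totals ran from 16090726 to 19221415 counts, where 3 counts equal 0.159 to 0.185 CPM. That limit and the intervals cover counting and replicate error only as far as these libraries show it.

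The groups share replicate numbers. Correlations of same-numbered deviations of log2 CPM (prior count 2) were 0.53, 0.30 and 0.17, all above the level of 0.1 taken to mean pairing. Control 2 with knockout 3, of different numbers, was also above it, at 0.14, and its Spearman correlation of 0.246 exceeded the 0.181 of the third pair. The pairing thus rests on a hint from the data, and what a replicate number stands for was not in the labels. The replicate block is printed where it changes a call, and for some genes where it changed none, such as Col3a1, Col15a1, Col23a1 and Col27a1. Other chains did not pass with the block either. Examples from that edgeR fit are Col5a3 (0.32, adjusted p = 0.408), Col16a1 (0.24, adjusted p = 0.159) and Col14a1 (-0.23, adjusted p = 0.33). A gene is said to have risen or fallen where it passed with the block. Alternatives were DESeq2 1.42.0, limma-voom (limma 3.58.1), another scaling, other filters and left-out libraries. The fits were also run on simulated counts, drawn independently for each gene, with changes added to well-counted genes only. That setting differs from these libraries, so the simulation does not bear on the calls given here.

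Positions, lengths and overlaps come from GENCODE M21 (GRCm38), in which all 43 collagen symbols matched 1 gene. Promoters come from RefSeq (GRCm38.p6). Collagen chains are given per library for the 3 highest of each class (the other class by its 3 subclasses), the 2 largest changes in each direction at a mean of at least 1 CPM, and those without overlap. In the lists, called genes and abundant members are named. Collagen chains and lists were chosen with earlier results of these data known.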

Additional observations from a re-analysis of the deposited data

How the results depend on the processing

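The count of collagen chains higher in the knockout was 0 without a block, with DESeq2, with limma-voom, with other size factors and with other filters, and it ran from 0 to 6 with a library or a pair left out. With the replicate block it was 3 without replicate 2 and 6 without replicate 3. The count lower in the knockout was 0 under every alternative run. Over all genes, 0 passed without a block in edgeR, against 542 with the replicate block, 63 with DESeq2, 416 with DESeq2 and the block and 404 with limma-voom and the block. With the block and a pair left out, the count was 208 without replicate 1, 819 without replicate 2 and 897 without replicate 3. The replicate block changed no collagen call while all 6 libraries were kept. The median log2 fold change of the collagen chains stayed between 0.03 and 0.18 with a library or pair left out. Signs near 0 turned. Col28a1 was at 0.0078 with the replicate block, 0.0081 with DESeq2 and the block, 0.0123 with limma-voom and 0.0010 with limma-voom and the block, against -0.01 without. With 1 library left out and no block, the log2 fold change ran from -0.23 to 0.017 for Col12a1, from -0.019 to 0.23 for Col1a2, from -0.22 to 0.10 for Col26a1, from -0.14 to 0.20 for Col28a1, from -0.076 to 0.17 for Col4a1, from -0.17 to 0.18 for Col4a2, from -0.18 to 0.028 for Col6a1, from -0.037 to 0.31 for Col6a3 and from -0.21 to 0.067 for Col7a1. With the block and 1 pair left out, it ran from -0.16 to 0.020 for Col12a1, from -0.25 to 0.075 for Col26a1, from -0.19 to 0.15 for Col28a1 (0.063 without replicate 3), from -0.021 to 0.10 for Col4a2, from -0.020 to 0.22 for Col6a3 and from -0.30 to 0.056 for Col7a1. The cause was not tested. Depth limits the chains under 1 CPM, which rest on few counts and have wide intervals.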
